A study of Mus musculus with 5 samples.

Results

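The nuclear genes for subunits of the oxidative phosphorylation enzymes were followed in retinal RNA of diabetic and control mice on Affymetrix whole-genome arrays. Members were chosen by name, with earlier results of these data known. A member had a probe set annotated with exactly 1 gene symbol that names a subunit of complexes I to V, cytochrome c1 (Cyc1) or cytochrome c (Cycs). The muscle isoforms Cox6a2, Cox7a1 and Cox8b were left out by the same rule. This gave 80 genes of 18193 in all, with 35 in complex I, 4 in complex II, 9 in complex III, 14 in complex IV and 17 in complex V, plus Cycs. The brightest probe set on average stood for a gene, and 76 of the 80 passed the filter on dim genes that keeps the upper 60% by mean level. The 4 that did not pass were Ndufa4l2, Ndufb4, Cox4i2 and Cox7b2. The complex I genes Ndufa11 and Ndufs6 are not members, since their probe sets are annotated with several symbols. Diabetic pools 1 and 2 were each 4 retinas of 2 mice, 5 weeks after diabetes was induced with streptozotocin, which kills pancreatic beta cells. Diabetic pool 3 was 6 retinas of 3 mice after 3 to 4 weeks of experimentally induced diabetes, with the agent not named. Control pools 1 and 2 were each 4 retinas of 2 untreated, age-matched mice with normal blood glucose. No allele or transgene is named for either group; strain, sex and age are not given in the labels, and each array is 1 pool.

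Oxidative phosphorylation moves electrons from NADH through complex I, and from succinate through complex II, to ubiquinone, complex III, cytochrome c and complex IV, where oxygen is reduced. The protons pumped by complexes I, III and IV drive complex V, the ATP synthase. Rod and cone photoreceptors hold densely packed mitochondria in their inner segments and spend much of their ATP on the ion pumps that sustain the dark current, and rods are the most numerous cells of the mouse retina.

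The arrays carried retinal RNA, with a summed signal of 7 rod marker genes between 566777 and 638516 in diabetic pools and of 553391 and 632272 in the controls. Diabetic pool 2 stood apart in its control probe sets: its beta-actin 3' to 5' signal ratio was 4.32, against 2.01 to 2.71 in the other arrays. The same ratio for Gapdh differed less, at 0.90 against 0.78 to 0.84. Its 18S ribosomal RNA signal was 11259 with the 5' probe set, against 1477 to 1931 in the other arrays. With the middle probe set it was 7087 against 1299 to 2176, and with the 3' one 11744 against 2447 to 3341. Skeletal muscle signal was high in diabetic pool 3 and control pool 2, where the 10 marker genes summed to 78237 and 49764, against 2225 to 3016 in the other arrays. None of the marker genes of these lists was at 0 on any array. Pigment epithelium markers (7 genes) summed to between 83162 and 119117 in diabetic pools and to 136346 and 178543 in the controls. Of its 6 tested genes, 5 were lower in all 3 diabetic pools than in both controls, as were 8.15% of all genes. Melanosome markers (5 genes) did not separate the groups. They summed to 22144, 2672 and 13660 in diabetic pools 1 to 3 and to 4684 and 18348 in control pools 1 and 2. The part of these other tissues in the values of the respiratory chain genes was not tested.

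Setting diabetic against control pools addresses whether transcripts of the respiratory chain differ in the retina within weeks of diabetes. Differences were small in every complex: over the 76 tested members the median log2 difference, diabetic minus control, was 0.020, against 0.0060 over all 10916 genes tested, and single members lay between -0.17 and 0.53. By complex the medians were 0.018 for I, 0.079 for II, 0.028 for III, 0.0099 for IV and 0.039 for V. All log2 values are of log2(signal + 120.6), where a difference of a bright gene is close to that of its signal. The member of the highest difference was Cox6b2, an isoform of a complex IV subunit known from testis, followed by the complex V subunits Atp5md, Atp5j and Atp5d, while Cox7c and Ndufs8 were lowest. In limma, 0 of 76 members passed a Benjamini-Hochberg adjusted p of 0.05, and over all 10916 genes the share was 0%; the smallest adjusted p of a member was 0.999. At an unadjusted p under 0.05 in the same fit there were 3 members, Cox6b2, Atp5j and Atp5d, all with higher values in diabetic pools, where 1.8% of all genes were called in that direction. There were 0 with lower values, where the share of all genes was 1.59% (3.39% in either direction). In either direction, 6 members were called without diabetic pool 2, where 606 of all 10916 genes were, against 370 with all arrays. Without diabetic pool 1 there were 5 members and 387 of all genes. Limma with array weights gave 4 members and 579 of all genes. In bulk RNA, fewer cells of a type and less RNA per cell cannot be told apart.

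The sign of the differences leaned towards higher values in diabetic pools, in 48 of 76 members (63.2%) against 51.9% of all genes tested. This lean depended on diabetic pool 2: without it 30 of 76 members were higher (39.5%) with a median of -0.0083. Over all genes 48.2% were higher with a median of -0.0057, a shift the same way. Under quantile normalization 38 of 76 members were higher (50%, all genes 50.5%), and the median turned to -0.00038. With arrays centred on their medians 54 of 76 (71.1%, all genes 59.1%). The groups did not overlap in 10 members with higher and 3 with lower values in diabetic pools, where 9.99% and 8.15% of all genes did so. Together these 13 of 76 members lie near the background, as 18.1% of all genes had no overlap in either direction. The precision allowed a limit on most members: the 95% interval lay within 0.5 log2 units of 0 in 70 of 76 members (92.1%), against 73.7% of all genes. The 6 whose interval reached further were Cox6b2, Atp5md, Ndufb1, Ndufs8, Cox7c and Cox8c. Members varied about as much as other genes of like signal: in the middle range of member levels, the median SD over the 5 arrays was 0.083 for 38 members and 0.0896 for 1059 other genes, and the median absolute difference 0.055 and 0.0549.

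**Figure D1:**
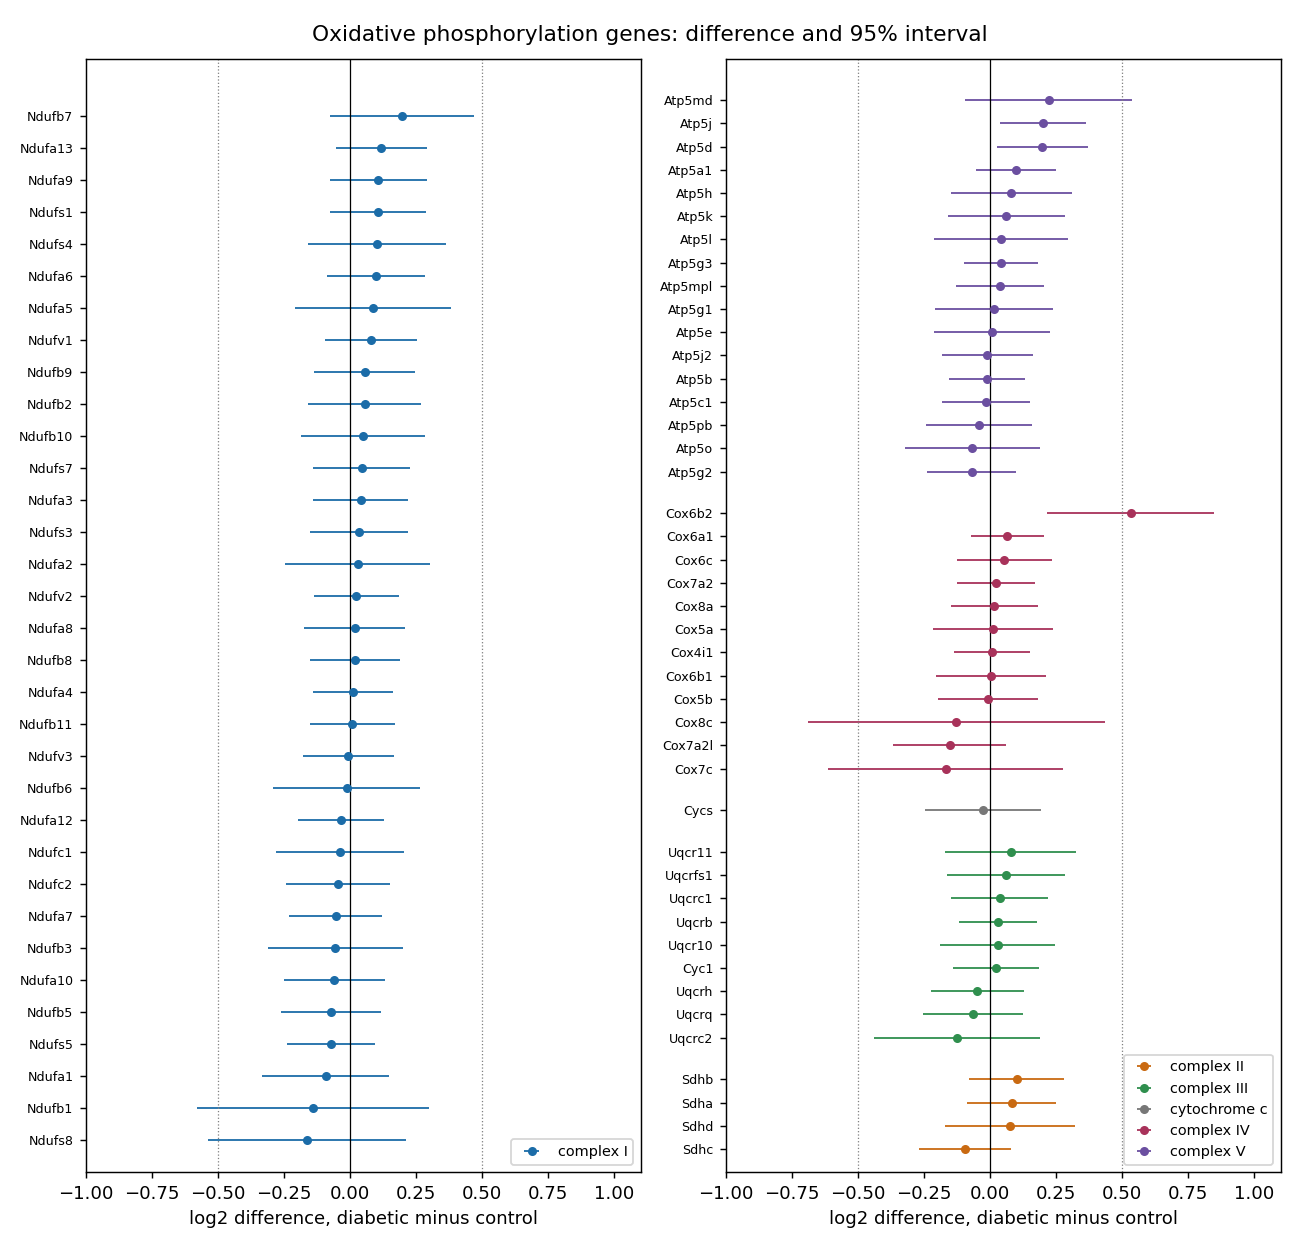
Log2 difference, diabetic minus control, of the 76 tested genes (points) with limma 95% intervals (bars), grouped by complex; dotted lines mark 0.5 log2 units either side of 0. Cox6b2, Atp5j and Atp5d have intervals above 0, and the other 73 intervals include 0.

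Nuclear genes of the respiratory chain are known to share promoter elements for the transcription factors NRF1, GABP of the ETS family, and YY1, which was looked at here because the rule that chose the genes did not use it. RefSeq promoter windows of GRCm38.p6, 250 bases before to 50 bases after the start, were matched for 65 of the 80 genes, and a gene counted when any of its windows held a motif on either strand. The NRF1 motif, the palindrome in capitals farthest from the start in the Cox6a1 sequence given next, was in 4 of 65 (6.15%) members and in 257 of 17492 (1.47%) protein-coding genes of the table. With its sixth base left free it was in 15 of 65 (23.1%) members and 1254 of 17492 (7.17%) protein-coding genes, a form that was added after the counts of the exact motif were seen and that includes every exact match. The ETS motif CCGGAAG was in 17 of 65 (26.2%) members and 2265 of 17492 (12.9%) protein-coding genes, and the YY1 motif AAGATGGC in 9 of 65 (13.8%) and 624 of 17492 (3.57%). Over all genes of the table, non-coding ones included, the shares were 1.07%, 5.19%, 9.93% and 3.19% in the same order. A match describes the letters in a window and not a bound site.

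Sequences of the 250 bases before the start are given for a complex IV gene with all but the YY1 motif (Cox6a1), a complex II gene (Sdhd), and the pair Cox6b1 and Cox6b2, of which Cox6b2 had the highest difference of all members; they run 5′ to 3′ on the minus strand of GRCm38.p6, with NRF1 (sixth base free) and ETS matches, the latter as the reverse complement CTTCCGG, in capitals.
Cox6a1: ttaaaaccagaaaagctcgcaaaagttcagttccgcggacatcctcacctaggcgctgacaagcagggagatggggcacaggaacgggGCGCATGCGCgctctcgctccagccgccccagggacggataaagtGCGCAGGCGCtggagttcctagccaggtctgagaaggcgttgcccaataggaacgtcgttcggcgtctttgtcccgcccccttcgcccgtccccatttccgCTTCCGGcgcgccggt
Sdhd: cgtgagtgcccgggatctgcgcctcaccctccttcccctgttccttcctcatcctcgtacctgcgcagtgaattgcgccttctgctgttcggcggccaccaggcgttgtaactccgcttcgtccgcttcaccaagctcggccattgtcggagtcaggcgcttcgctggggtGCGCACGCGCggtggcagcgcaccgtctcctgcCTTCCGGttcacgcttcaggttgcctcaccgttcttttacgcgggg
Cox6b1: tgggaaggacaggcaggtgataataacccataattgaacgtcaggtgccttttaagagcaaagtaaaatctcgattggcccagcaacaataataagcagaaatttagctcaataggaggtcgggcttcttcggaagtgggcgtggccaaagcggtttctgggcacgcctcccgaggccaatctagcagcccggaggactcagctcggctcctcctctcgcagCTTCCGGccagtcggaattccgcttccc
Cox6b2: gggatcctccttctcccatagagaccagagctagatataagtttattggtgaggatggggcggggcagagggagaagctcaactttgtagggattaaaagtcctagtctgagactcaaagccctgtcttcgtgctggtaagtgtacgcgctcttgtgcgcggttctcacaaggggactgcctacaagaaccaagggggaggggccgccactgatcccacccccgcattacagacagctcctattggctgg
They lie at chr5:115348959-115349208, chr9:50603850-50604099, chr7:30626115-30626364 and chr7:4753095-4753344. The capitals of Cox6a1 begin at -162, -117 and -16 from the start, those of Sdhd at -79 and -46, and that of Cox6b1 at -28, whereas none of the motifs searched is in the Cox6b2 window.

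In complex I, the NADH dehydrogenase, 20 of 33 tested genes were higher and 13 lower in diabetic pools (median 0.018, range -0.16 to 0.20). The median was -0.013 without diabetic pool 2, 0.0048 without control pool 1 and 0.035 without diabetic pool 3. Ndufb7, an accessory subunit of the membrane arm, had signals of 19308, 21852 and 16347 in diabetic pools 1 to 3 and 17239.5 and 15939 in control pools 1 and 2. Diabetic pool 2 was highest and the groups overlapped, with a log2 difference of 0.20 (SE 0.12, 95% interval -0.075 to 0.47), 0.099 without diabetic pool 2 and 0.31 without diabetic pool 3. Its other probe set above the filter differed by -0.0020. Ndufs1, the largest iron-sulfur subunit of the peripheral arm, was at 12921, 12760.5 and 13629 in diabetic pools 1 to 3 and 12013 and 12338 in control pools 1 and 2. All 3 diabetic pools lay above both controls, and the difference was 0.10 (SE 0.079, 95% interval -0.076 to 0.29). Ndufv1, which binds NADH and the flavin, gave 25145, 27880 and 25579.7 in diabetic pools 1 to 3 and 24916 and 24651 in control pools 1 and 2, also without overlap, and differed by 0.078 (SE 0.076, 95% interval -0.095 to 0.25). Ndufa9, an accessory subunit near the quinone site, and Ndufa6 were likewise without overlap, at differences of 0.11 and 0.098, while Ndufa13 overlapped at 0.12. Ndufa9 was 0.066 without diabetic pool 3. Ndufa6 was 0.061 without diabetic pool 2 and 0.063 without control pool 1. Ndufa13 was 0.057 without control pool 2 and 0.18 without control pool 1. With single arrays left out Ndufv1 lay between 0.033 and 0.11 (0.033 without diabetic pool 2).

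Ndufs1 and Ndufv1 belong to the nuclear-encoded core that carries electrons, together with Ndufs3, Ndufs7, Ndufs8 and Ndufv2. Ndufs3 and Ndufs7 differed by 0.034 and 0.043 and Ndufv2 by 0.023, so that 5 of these 6 core genes were higher and Ndufs8 lower, all with intervals that include 0. The accessory subunit Ndufs4, whose loss causes a form of Leigh syndrome, differed by 0.10 (SE 0.11, 95% interval -0.16 to 0.36). Its dimmer probe sets above the filter differed by 0.13, -0.055 and -0.44. Ndufa1 and Ndufb1, small membrane-arm subunits, were on the low side at -0.092 and -0.14 (SE 0.19). Ndufb1 was dim in its 1 probe set, at 872, 817 and 693 in diabetic pools 1 to 3 and 940 and 833 in the controls.

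By the probe sets used, Ndufs5 was the single complex I gene with all diabetic pools below both controls. It was at 20499, 20245 and 20788 in diabetic pools 1 to 3 and 22319 and 20870 in control pools 1 and 2, a difference of -0.073 (SE 0.073). Its probe set shared with Ndufs5-ps overlapped, at 18908, 19036 and 19215 in diabetic pools 1 to 3 and 20471 and 17971 in the controls. Dimmer probe sets of Ndufc1, Ndufc2 and Ndufa7 also had all diabetic pools below both controls. Ndufs8, an iron-sulfur subunit next to the quinone site, had the lowest difference of the complex, -0.16 (SE 0.16, 95% interval -0.54 to 0.21), which turned on 1 value. Its probe set of highest mean gave 24503, 28658 and 25715 in diabetic pools 1 to 3 and 23576 and 36656 in control pools 1 and 2, so that control pool 2 stood above the rest. None of the other 5 Ndufs8 probe sets showed control pool 2 apart: the brightest of them gave 23068, 25586 and 19848 in diabetic pools 1 to 3 and 24768 and 21719 in the controls, and the differences of the 5 ran from -0.11 to 0.037. Ndufa4, long counted with complex I and now placed with complex IV, was nearly level at 39856, 41188 and 38502 in diabetic pools 1 to 3 and 40135 and 38941 in control pools 1 and 2. The log2 difference was 0.011 (SE 0.067, 95% interval -0.14 to 0.16). Its paralog Ndufa4l2, known as a hypoxia-induced gene, was dim and untested, at 521, 517 and 578 in diabetic pools 1 to 3 and 333 and 543 in control pools 1 and 2. Control pool 1 was lowest and control pool 2 lay among the diabetic pools. Ndufb4, of the membrane arm, was also below the filter, at 555, 766 and 642 in diabetic pools 1 to 3 and 483 and 509.9 in control pools 1 and 2, and here the diabetic pools were all above both controls. This was not seen in the 2 brighter probe sets annotated with Ndufb4, Ndufb4b and Ndufb4c together, with overlap in each. One read 20966, 25493 and 21703 in diabetic pools 1 to 3 and 22755 and 23088 in the controls. The other read 15390, 17063 and 15133 in diabetic pools 1 to 3 and 14854 and 15482 in the controls. The shared probe sets of the non-members Ndufa11 (the brighter one) and Ndufs6, read with Ndufa11b and Ndufs6b, overlapped as well. For Ndufa11 the values were 13113, 14879 and 13414 in diabetic pools 1 to 3 and 13124 and 12769 in the controls. For Ndufs6 they were 14032, 17609 and 15403 in diabetic pools 1 to 3 and 16329.7 and 15920.2 in the controls.

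Complex II, succinate dehydrogenase, is the enzyme shared with the citric acid cycle and the only one of the chain built wholly from nuclear genes. Of its genes, 3 of 4 tested were higher and 1 lower in diabetic pools (median 0.079, range -0.094 to 0.10). The median was 0.11 without diabetic pool 2, 0.044 without diabetic pool 1 and 0.043 without control pool 1. Sdha, the flavoprotein, was at 27549.9, 25623 and 28159.6 in diabetic pools 1 to 3 and 25212 and 25991 in control pools 1 and 2. Diabetic pool 2 lay below control pool 2, so the groups overlapped, and the difference was 0.081 (SE 0.074, 95% interval -0.089 to 0.25), 0.053 without diabetic pool 3, with the same 0.081 in each of its other probe sets above the filter. Sdhb, the iron-sulfur subunit, was at 14451, 14977 and 15628 in diabetic pools 1 to 3 and 14291 and 13704 in control pools 1 and 2, higher in all 3 diabetic pools. On the log2 scale they differed by 0.10 (SE 0.079, 95% interval -0.080 to 0.28). Sdhc, a membrane anchor, went the other way at 12456, 12902 and 12862 in diabetic pools 1 to 3 and 13720 and 13496 in control pools 1 and 2, lower in all 3. The log2 difference was -0.094 (SE 0.076, 95% interval -0.27 to 0.080). A dimmer Sdhc probe set differed by 0.16, and the mean over both probe sets was higher in diabetic pools (0.034). Sdhd, the other anchor, was at 6009, 5069 and 5598 in diabetic pools 1 to 3 and 5068 and 5446 in control pools 1 and 2, with overlap and a difference of 0.076 (SE 0.11, 95% interval -0.17 to 0.32) (0.020 without diabetic pool 1, 0.14 without diabetic pool 2, 0.026 without control pool 1 and 0.13 without control pool 2).

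Complex III passes electrons from ubiquinol to cytochrome c, and 6 of 9 tested genes were higher and 3 lower in diabetic pools (median 0.028, range -0.12 to 0.078). Leaving out control pool 1 turned the median to -0.030 and leaving out control pool 2 to -0.012; it was 0.0039 without diabetic pool 2 and 0.0087 without diabetic pool 1. Uqcrc2, a core subunit without a redox group, had the lowest difference and was at 18818, 26330.5 and 19409 in diabetic pools 1 to 3 and 23884 and 22528 in control pools 1 and 2. Diabetic pool 2 was the highest and diabetic pools 1 and 3 the lowest arrays, giving -0.12 (SE 0.14, 95% interval -0.44 to 0.19), -0.28 without diabetic pool 2, -0.037 without diabetic pool 1, -0.059 without diabetic pool 3 and -0.083 without control pool 1. The other Uqcrc2 probe set did not show this, at 19686, 19175 and 20366 in diabetic pools 1 to 3 and 19246 and 18308 in the controls, a difference of 0.072. Uqcrq, a small subunit, was lower without overlap, at -0.066 (SE 0.083, 95% interval -0.26 to 0.12), but -0.020 without diabetic pool 1 and -0.33 as a mean over its probe sets. That mean takes in dim probe sets below the filter. The dim probe set of largest difference (-1.28) read 21, 126 and 105 in diabetic pools 1 to 3 and 336 and 389 in the controls. Uqcr11 and the Rieske iron-sulfur protein Uqcrfs1 differed by 0.078 and 0.061, and without control pool 1 by -0.013 and -0.030. The remaining genes, the core subunit Uqcrc1 and the small subunits Uqcrb, Uqcr10 and Uqcrh, differed by 0.036, 0.030, 0.028 and -0.048. Cyc1, the heme subunit that hands electrons to cytochrome c, was nearly level at 28569.6, 27455 and 28170.5 in diabetic pools 1 to 3 and 28656 and 26667 in control pools 1 and 2. This is a log2 difference of 0.022 (SE 0.071, 95% interval -0.14 to 0.18). Cycs, the mobile carrier itself, was at 30738, 36653 and 37329 in diabetic pools 1 to 3 and 34186 and 36732 in control pools 1 and 2. Diabetic pool 1 was the lowest array. The log2 difference was -0.027 (SE 0.096, 95% interval -0.25 to 0.19), 0.062 without diabetic pool 1.

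In complex IV, cytochrome c oxidase, 8 of 12 tested genes were higher and 4 lower in diabetic pools (median 0.0099, range -0.17 to 0.53). The median was -0.041 without diabetic pool 2, -0.0030 without control pool 2 and 0.040 without control pool 1. Cox6b2, with 1 probe set, was at 2922, 2711 and 2884 in diabetic pools 1 to 3 and 1704 and 2174 in control pools 1 and 2. Every diabetic pool was above both controls, the means being 2839 ± 113 (SD, n = 3) and 1939 ± 332 (SD, n = 2). On the log2 scale the difference was 0.53 (SE 0.14, 95% interval 0.22 to 0.85), 44.6% higher, with an adjusted p of 0.999 over all genes tested (limma, Benjamini-Hochberg). With 1 control left, it was 0.37 when control pool 1 was omitted and 0.70 when control pool 2 was, and between 0.51 and 0.56 without a diabetic array. Cox6b1, the widely expressed form of the same subunit, was at 39450.5, 48608 and 44011 in diabetic pools 1 to 3 and 44077 and 43464 in control pools 1 and 2, with control values inside the diabetic range and a difference of 0.0031 (SE 0.091, 95% interval -0.20 to 0.21).

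Cox4i1, a regulatory subunit, was among the most level genes at 48071, 49359 and 46894 in diabetic pools 1 to 3 and 47771 and 47870 in control pools 1 and 2. This is a log2 difference of 0.0083 (SE 0.063, 95% interval -0.14 to 0.15). Its oxygen-responsive isoform Cox4i2 was dim and untested at 731, 417 and 489 in diabetic pools 1 to 3 and 519.5 and 382 in control pools 1 and 2, with diabetic pool 1 highest and control pool 2 lowest. Cox6a1 was higher without overlap, 68228, 70635 and 68939.6 in diabetic pools 1 to 3 and 67438 and 64902 in control pools 1 and 2, by 0.066 (SE 0.060, 95% interval -0.072 to 0.20), 0.038 without control pool 2. Cox7a2 differed by 0.022 (SE 0.065, 95% interval -0.13 to 0.17). Cox7a2l, a factor that joins complexes III and IV in supercomplexes, differed by -0.15 (SE 0.094, 95% interval -0.37 to 0.061) with overlap (-0.23 without diabetic pool 2 and -0.094 without diabetic pool 3). Its other probe sets above the filter differed by -0.0037 and -0.018. The brightest Cox7c probe set was at 982, 1127 and 1414 in diabetic pools 1 to 3 and 1187 and 1468 in control pools 1 and 2, highest in the 2 arrays of high muscle signal. The log2 difference was -0.17 (SE 0.19, 95% interval -0.61 to 0.28), -0.028 without control pool 2, -0.059 without diabetic pool 1, -0.30 without diabetic pool 3 and -0.31 without control pool 1. The part of muscle RNA in it was not tested. Of the widely expressed subunits, Cox5a, Cox5b, Cox6c and Cox8a differed by 0.011, -0.0082, 0.054 and 0.016, and the testis form Cox8c by -0.13 (SE 0.25, 95% interval -0.69 to 0.43). Cox7b2, a testis form, was below the filter at 48.7, 30.7 and 171 in diabetic pools 1 to 3 and 54 and 158 in control pools 1 and 2, and higher in the same pair of arrays.

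**Figure D2:**
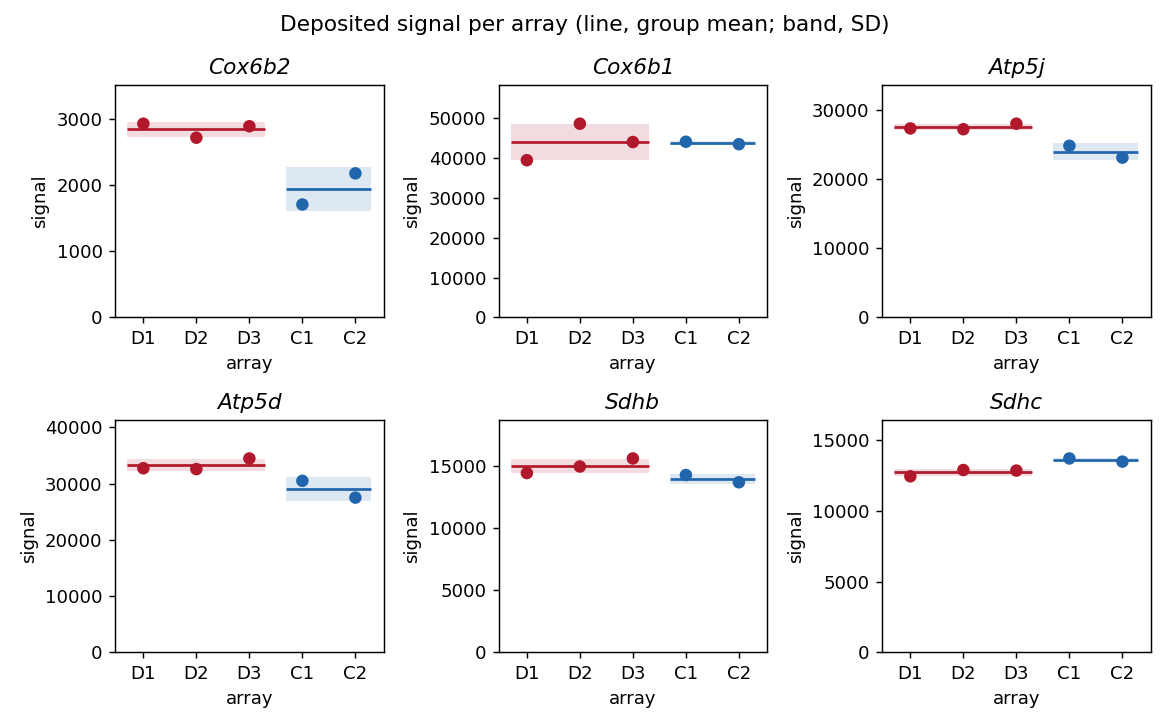
Deposited signal (linear scale from 0) of 6 genes in diabetic pools D1 to D3 (red) and control pools C1 and C2 (blue), with group means (lines) and SD (bands). Cox6b2, Atp5j, Atp5d and Sdhb are higher and Sdhc lower in all 3 diabetic pools, whereas Cox6b1 overlaps.

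In complex V, the ATP synthase, 11 of 17 tested genes were higher and 6 lower in diabetic pools (median 0.039, range -0.070 to 0.22), with a median of -0.0057 without diabetic pool 2 and 0.081 without diabetic pool 1. Atp5j, coupling factor F6 of the peripheral stalk, was at 27372, 27255 and 28055 in diabetic pools 1 to 3 and 24861 and 23141 in control pools 1 and 2. The 3 diabetic pools lay close together and above both controls. On the log2 scale they differed by 0.20 (SE 0.071, 95% interval 0.037 to 0.36), between 0.15 and 0.25 with single arrays left out. Atp5d, the delta subunit of the central stalk, was at 32737, 32580.5 and 34481 in diabetic pools 1 to 3 and 30499 and 27514 in control pools 1 and 2, again without overlap. Its difference was 0.20 (SE 0.075, 95% interval 0.026 to 0.37), 0.12 without control pool 2, and its other probe set differed by 0.049. For both genes limma gave a Benjamini-Hochberg adjusted p of 0.999. Atp5md, a small membrane subunit, was at 10680.1, 14142 and 14789.9 in diabetic pools 1 to 3 and 11724 and 10677 in control pools 1 and 2. Diabetic pools 2 and 3 were high and diabetic pool 1 lay with the controls, so the 0.22 (SE 0.14, 95% interval -0.094 to 0.54) difference became 0.37 without diabetic pool 1 and 0.13 without diabetic pool 3. Atp5a1, the alpha subunit, was higher without overlap by 0.098 (SE 0.066, 95% interval -0.053 to 0.25), although its 2 dimmer probe sets differed by 0.055 and -0.086.

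The catalytic beta subunit Atp5b was nearly level at 65759.6, 61445 and 64103 in diabetic pools 1 to 3 and 64915 and 63692 in control pools 1 and 2. This is a log2 difference of -0.013 (SE 0.063, 95% interval -0.16 to 0.13). The gamma and epsilon subunits Atp5c1 and Atp5e differed by -0.015 and 0.0079. In the peripheral stalk with Atp5j, Atp5h differed by 0.080, Atp5o by -0.067 and Atp5pb by -0.042. The small membrane subunits Atp5j2, Atp5k, Atp5l and Atp5mpl differed by -0.010, 0.061, 0.042 and 0.039. The 3 genes of subunit c, whose ring turns as protons pass, encode the same mature protein behind different targeting peptides. Atp5g1 was at 10386, 11924 and 12472 in diabetic pools 1 to 3 and 11418 and 11484 in control pools 1 and 2. It differed by 0.013 (SE 0.098, 95% interval -0.21 to 0.24). Atp5g2 was at 19032, 19213 and 20259 in diabetic pools 1 to 3 and 20888 and 20057 in control pools 1 and 2. It differed by -0.070 (SE 0.074, 95% interval -0.24 to 0.099). Atp5g3 was at 60691, 59586 and 62319 in diabetic pools 1 to 3 and 60054 and 58244 in control pools 1 and 2. It differed by 0.041 (SE 0.062, 95% interval -0.099 to 0.18). Groups overlapped in all 3, and every interval included 0. Atp5g2 was -0.041 without control pool 1, and Atp5g3 0.019 without control pool 2, 0.063 without control pool 1, 0.024 without diabetic pool 3 and 0.0020 without both arrays of high muscle signal.

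Across arrays the members followed single pools. Diabetic pool 2 held the highest value of 36 of 76 members (47.4%), where it held that of 32.8% of all genes tested, and diabetic pool 1 the lowest of 34 (44.7%), where the share of all genes was 24.3%. Of each member's log2 deviation from its mean over the arrays, the median over members was -0.057, 0.064, 0.00078 in diabetic pools 1 to 3 and -0.0084 and -0.0093 in control pools 1 and 2. The same median over all genes tested was -0.0076, 0.033, -0.0099 in diabetic pools 1 to 3 and -0.0037 and -0.0036 in control pools 1 and 2. Diabetic pools 1 and 2 had the same treatment and time, yet their medians lay further apart than the 2 group medians. By complex, diabetic pool 2 was highest in 20 of 33 complex I and 7 of 12 complex IV genes, 3 of 9 in complex III, 6 of 17 in complex V and 0 of 4 in complex II. Ndufa5 of complex I was one of these, at 15296, 20935 and 17372 in diabetic pools 1 to 3 and 15685 and 17753 in control pools 1 and 2. Ndufb6 was another, at 18609, 25186 and 20448 in diabetic pools 1 to 3 and 20736 and 22149 in control pools 1 and 2. Cytosolic ribosomal protein genes, which also make short and abundant transcripts, gave -0.044, 0.054, 0.0064 in diabetic pools 1 to 3 and 0.019 and -0.024 in control pools 1 and 2, with diabetic pool 2 highest in 18 of 43. Glycolysis genes gave 0.042, 0.0076, -0.019 in diabetic pools 1 to 3 and 0.0051 and -0.039 in control pools 1 and 2, with diabetic pool 2 highest in 3 of 14. The part of RNA quality in the values of diabetic pool 2 was not tested.

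**Figure D3:**
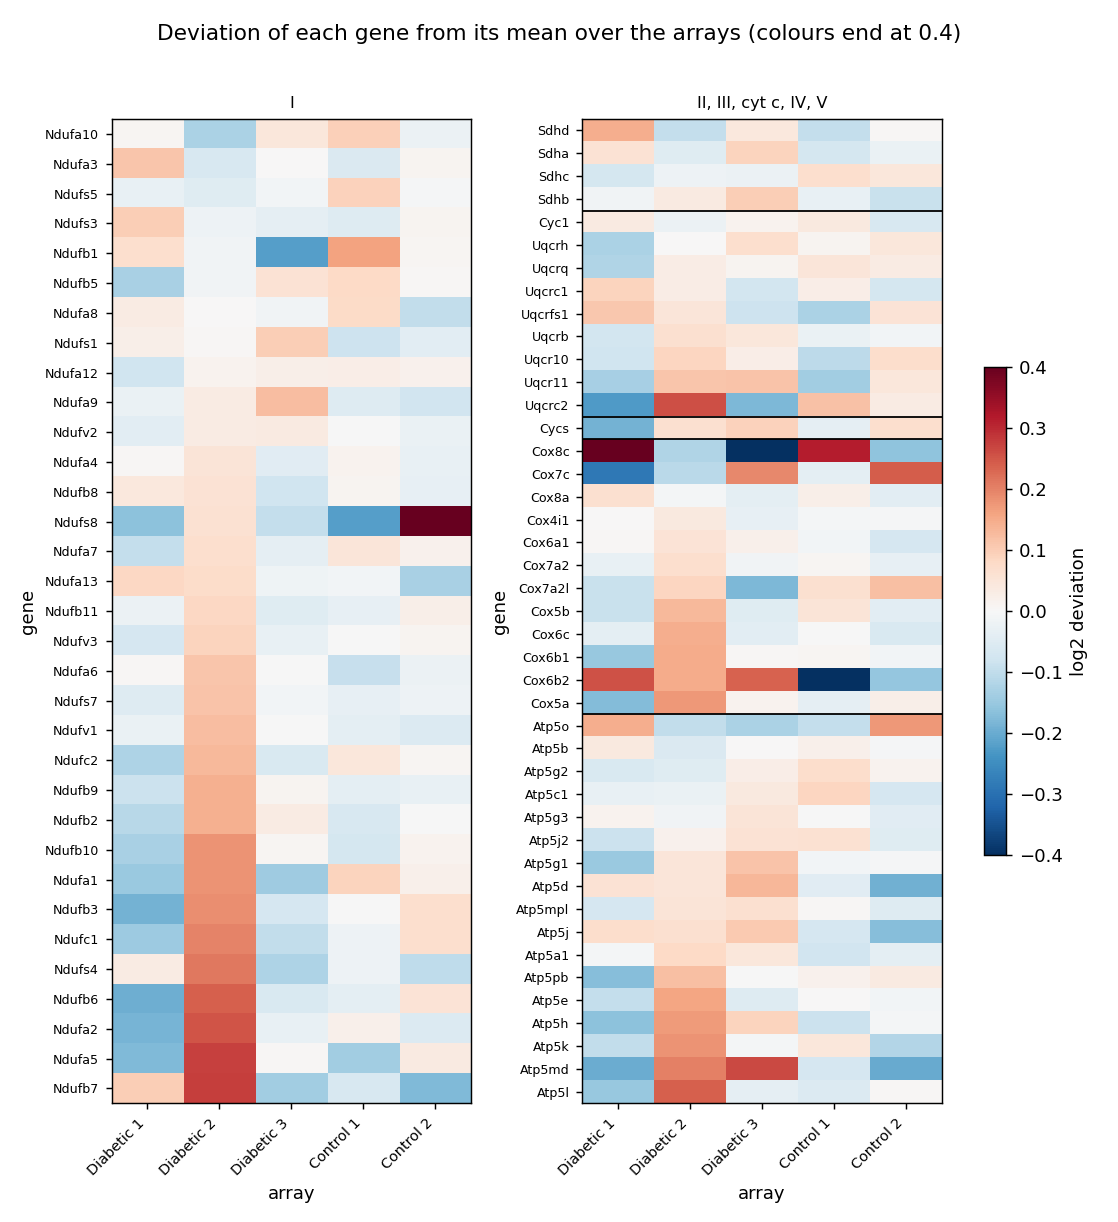
Log2 deviation of each tested gene (rows, by complex, sorted by diabetic pool 2) from its mean over the 5 arrays (columns); red is above and blue below the mean, and colours end at 0.4 log2 units. Diabetic pool 2 is red in most complex I rows, and diabetic pool 1 blue in many of the same rows.

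**Figure D4:**
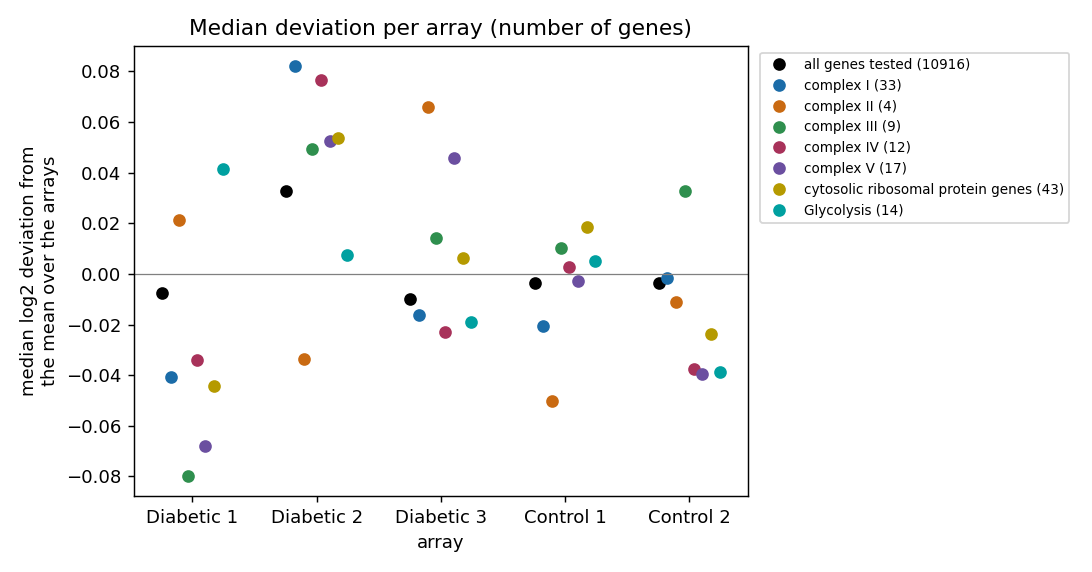
Median log2 deviation of each gene group (coloured points, number of tested genes in the legend) from the mean over the arrays, for each of the 5 arrays. Complexes I, III, IV and V and the ribosomal protein genes lie below 0 in diabetic pool 1 and above 0 in diabetic pool 2, whereas complex II does the reverse.

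The choice of probe set weighed on single genes. The 80 members had 165 probe sets, 144 of them above the filter, and in 21 of the 42 members with more than 1 such probe set these differed in sign between diabetic and control pools. Some of these differences lay close to 0 on both sides, as in Uqcrb (-0.0088 and 0.030). Probe sets also split over diabetic pool 2: in 19 of the 42 its value lay above the mean of the other arrays by one probe set and below it by another. Neither count was made over all genes with several probe sets, so neither is shown to be particular to members. For Cox6a1, diabetic pool 2 was 0.47 log2 units above the mean of the others by one probe set (24524, 34706 and 24719 in diabetic pools 1 to 3 and 24467 and 26243 in the controls) and 0.068 by the brighter one used here. For Ndufa12 the 4 probe sets put it between -0.82 and 0.019, and for Ndufv2 the 3 put it between -0.17 and 0.25. By the array's naming, probe sets ending in _a_at recognise transcripts of 1 gene, and those in _s_at or _x_at can share sequence with other genes. Diabetic pool 2 was highest in 20 of 29 tested members read by an _a_at probe set (median deviation 0.087), 8 of 17 by _s_at or _x_at (0.066) and 8 of 30 by a plain _at probe set (0.035). It was highest in 32.8% of all genes tested, but these were not split by suffix. Whether other genes divide in the same way is therefore not known. Respiratory chain genes have many processed pseudogenes in the mouse genome, and probe sets annotated with several symbols, 9 of them naming a subunit gene (member genes Ndufb4, Ndufs5, Ndufa13 and Ndufb2, and Ndufa11 and Ndufs6, which have no other), were left out.

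The muscle isoforms that were left out of the members of complex IV followed the muscle markers. Cox6a2, the heart and skeletal muscle form, was at 658, 697 and 3615 in diabetic pools 1 to 3 and 662 and 2064 in control pools 1 and 2. Cox8b was at 582, 277 and 2155 in diabetic pools 1 to 3 and 627 and 1756 in control pools 1 and 2. Cox7a1 was at 683, 949 and 1815 in diabetic pools 1 to 3 and 763 and 1235 in control pools 1 and 2. All 3 were highest in diabetic pool 3 and control pool 2. Among the tested members, 3 of 76 (Cox7c, Uqcrh and Cycs) had both these arrays above the other 3, against 8.12% of all genes tested. The rule had left out the 3 muscle isoforms, which share this pattern, while the share of all genes keeps such genes. The member share is therefore low in part by the choice of members, and the shares are not alike. Without both arrays the median over members was 0.029, in a fit that leaves 1 control.

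**Figure D5:**
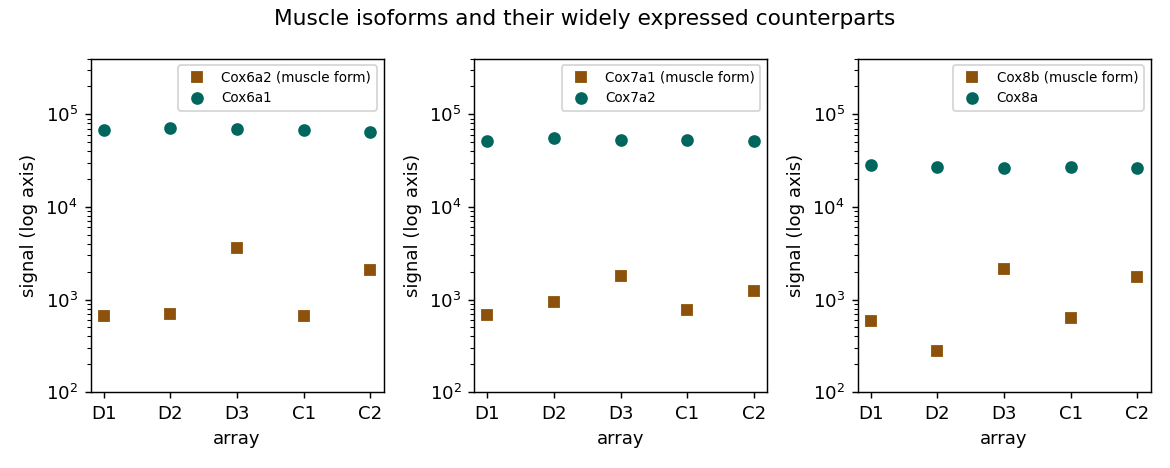
Deposited signal (log axis) of 3 muscle isoforms (squares) and their widely expressed counterparts (circles) in diabetic pools D1 to D3 and control pools C1 and C2; levels of different probe sets are not comparable. The muscle isoforms are highest in D3 and C2, and the counterparts vary little between arrays.

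Other genes of the pathway were taken from lists set by function, and 0 of their tested genes passed the adjusted p in limma (unadjusted p under 0.05 in 0 of them). Of complex I assembly factors, 5 of 17 tested were higher (median -0.081), with Ndufaf6 at a log2 difference of -0.30 (0.075 without control pool 2 and -0.68 without control pool 1). Tmem126b was at -0.38 (-0.12 without diabetic pool 2 and -0.22 without control pool 2). Of assembly factors for complexes II to V, 11 of 28 tested were higher (median -0.017). Cox15, which makes the heme of complex IV, was at 2849, 5212 and 3544 in diabetic pools 1 to 3 and 4745 and 5509 in control pools 1 and 2. This is a log2 difference of -0.44 (SE 0.22, 95% interval -0.93 to 0.063), -0.24 without diabetic pool 1 and -0.67 without diabetic pool 2, and -0.11 when _s_at and _x_at probe sets were left out. Atpaf2, a chaperone of the ATP synthase, was lower without overlap, at -0.30 (-0.14 without control pool 1 and -0.46 without control pool 2). The single mitochondrially encoded subunit measured, ND5 of complex I, was at 122309, 99717 and 114826 in diabetic pools 1 to 3 and 109637 and 105042 in control pools 1 and 2. This is a log2 difference of 0.060 (SE 0.087, 95% interval -0.14 to 0.26) (-0.0042 without diabetic pool 1, 0.14 without diabetic pool 2, 0.091 without control pool 1 and 0.029 without control pool 2).

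Among regulators of mitochondrial biogenesis, 12 of 27 tested were higher (median -0.0079), with Yy1 at -0.12 (-0.052 without control pool 2, -0.19 without control pool 1 and 0.0050 as a mean over probe sets). The nuclear receptor Esrrb was at -0.17 (-0.092 without diabetic pool 1 and -0.28 without diabetic pool 2). Among pyruvate dehydrogenase and citric acid cycle genes, 10 of 16 tested were higher (median 0.037), and 4 were higher and 1 lower without overlap, where 9.99% and 8.15% of all genes were. Mdh2, mitochondrial malate dehydrogenase, was among the former, at 54422, 55326 and 52435 in diabetic pools 1 to 3 and 49285 and 48764 in control pools 1 and 2. This is a log2 difference of 0.14 (SE 0.063, 95% interval -0.0031 to 0.28). Dlat, a pyruvate dehydrogenase subunit, differed by 0.18 (0.12 without control pool 2). For carriers and porins, 7 of 13 tested were higher (median 0.00021), with the aspartate-glutamate carrier Slc25a12 at 0.20 and the citrate carrier Slc25a1 at -0.18. For uncoupling proteins and alternative electron entry, 7 of 16 tested were higher (median -0.037), with Pdss2 and Coq4, of ubiquinone synthesis, at 0.41 and -0.20. Pdss2 was 0.17 without diabetic pool 1 and -0.14 as a mean over its probe sets. For glycolysis, 9 of 14 tested were higher (median 0.031), with Hk2 at 0.14 (0.088 without diabetic pool 2 and 0.077 without control pool 2). Ldhb was at 0.16 (0.062 without diabetic pool 2 and 0.10 without control pool 1). The 43 tested cytosolic ribosomal protein genes had a median of -0.0011.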

How the data were processed

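The deposited values are signal intensities on a linear scale, 1 per probe set and array, scaled by the authors so that the mean without the lowest and highest 2% is 2500.0 on every array, as the values show. The summarization software is not given in the sources used here. Array medians ran from 634.6 to 714.7. Symbols of 34945 probe sets with 1 symbol were updated by Entrez ID through RefSeq GRCm38.p6 (34741 matched).

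Signals were taken as log2(signal + 120.6), the pseudocount being the 20th percentile of all values, which understates differences of dim genes. The probe set of highest mean stood for a gene, the upper 60% of genes were tested with limma 3.58.1 (R 4.3.3, eBayes with a trend) and adjusted by Benjamini-Hochberg over all of them. P-values compare pools, and with 5 arrays the number of arrays limits the precision. The fit was tested on simulated data with independent noise and added log2 changes of 1 or 2. It recovered 84.1% and 99% of these, and 5.2% of its calls were false. Changes as small as those of the members, uneven RNA quality and muscle signal were not simulated, so the simulation does not bear on them. Plots used matplotlib 3.10.9.

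Named members were, among those tested, the 6 of smallest p in complex I, 4 each in III, IV and V, all of complex II, Cyc1, Cycs and isoform families, and up to 2 per pathway list. The remaining members were described after their values were seen. Members and lists were chosen with earlier results of these data known.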

Additional observations from a re-analysis of the deposited data

Results flagged for a closer look

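Control probe sets, which are outside the gene comparison, read above both control arrays in diabetic replicate 2, the array that was highest in 36 of 76 members. Its beta-actin 3' to 5' ratio was 4.32, or 1.6 times the higher control, while its Gapdh ratio was 0.90, or 1.1 times. For 18S ribosomal RNA it read 11744 with the 3' probe set, 7087 with the middle one and 11259 with the 5' one, while the higher control had 2993, 1949 and 1931. Their part in the results was not tested.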

How the results depend on the processing

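In every alternative run, 0 members passed the adjusted p of 0.05 in limma. The count at an unadjusted p under 0.05 was 3, where 370 of all genes tested were called. It was from 2 to 6 with single diabetic arrays left out (373 to 606 of all genes). Array weights gave 4 (579 of all genes) and the fit without the trend 1 (432). The others that keep both controls gave 2 or 3, with 371 to 400 of all genes, or 695 without the filter on dim genes. Medians with single arrays left out lay between -0.0083 and 0.038 over all members, between -0.013 and 0.035 for complex I, between 0.043 and 0.11 for II, between -0.030 and 0.019 for III, between -0.041 and 0.040 for IV and between -0.0057 and 0.081 for V. With single arrays left out, these values changed sign: Uqcr11 between -0.013 and 0.17, Uqcrfs1 between -0.030 and 0.15, Cyc1 between -0.030 and 0.073, Cycs between -0.079 and 0.062, Ndufa4 between -0.013 and 0.035, Cox4i1 between -0.010 and 0.027, Cox6b1 between -0.071 and 0.079, Atp5g1 between -0.041 and 0.090, Cox7a2 between -0.0078 and 0.043, Ndufaf6 between -0.68 and 0.075 and ND5 between -0.0042 and 0.14. Quantile normalization took the medians to -0.00038 over all members, -0.0022 for complex I, 0.013 for III, -0.010 for IV and 0.0066 for V, and turned Cyc1 to -0.0052, Ndufa4 to -0.021, Cox4i1 to -0.014 and Cox6b1 to -0.019. The mean over probe sets turned Sdhc to 0.034, Yy1 to 0.0050 and Pdss2 to -0.14. Without both arrays of high muscle signal the medians were 0.053 for complex I and 0.0020 for V, Cyc1 was -0.033, Cox6b1 -0.0094 and Atp5g1 -0.037. With the replicate block the median over all members was 0.030, 2 members had an unadjusted p under 0.05 and Atp5g1 was -0.041; the labels do not pair the arrays, diabetic replicate 3 has no control of its number, and same-numbered arrays did not deviate together (r = -0.014 across genes, which are not independent). The causes were not tested.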
